A study of Mus musculus with 2 samples.

Results

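Splice junctions across introns shorter than 100 bp were described in mouse CD4+ T cells, lymphocytes that help other immune cells to respond. A junction is the join left in an RNA when an intron is cut out, and the length of that intron was the only criterion: every listed junction whose 2 ends lay less than 100 bp apart was taken. There were 7308 such junctions among 124183 in all. The mock library listed 6148 of them and the stimulated library 5880, with 4720 in both, 1428 in the mock library only and 1160 in the stimulated library only.

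The cells came from spleens of male C57BL/6JJcl mice, 4 spleens pooled, and were enriched magnetically as CD4+ T cells. The stimulated group was kept for 4 h on a plate coated with 2 antibodies, each at 2 ug/ml. One binds CD3e, a signalling chain that sits beside the T cell receptor, and the other binds CD28, which gives the second signal for activation. The mock group was handled in the same way without antibody. One library of total RNA was sequenced per group, so no difference between them has a replicate check, and no p-value is given. Intervals are exact 95% intervals, Clopper-Pearson for shares and ratios and conditional for odds ratios, and cover counting error only. Reads made by PCR are not independent molecules. In RNA from many cells, fewer cells of a type and less RNA per cell cannot be told apart.

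Introns are removed by the spliceosome, which recognises a donor site that nearly always begins with GT, an acceptor site that nearly always ends with AG, a branch point between them and a run of pyrimidines before the acceptor. Most mammalian introns are long, and their exons are thought to be recognised first. In a very short intron both splice sites lie so close together that the intron itself can be recognised as the unit, and such introns are known to be rich in G and C and to be left in the RNA more often than long ones.

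The letters of a short intron are shown first, because they are the whole object that a junction of this kind spans. They were read from GENCODE M21 transcripts, annotated on GRCm38, that keep the intron. No genome of the build of the files, mm9, was used. The introns below run 5′ to 3′ on the strand of the gene, with the donor GT and the acceptor AG in capitals. They were taken from the junctions described below that have such a transcript, and they run from the shortest to the longest.
Rnf126 intron 5 (65 bp): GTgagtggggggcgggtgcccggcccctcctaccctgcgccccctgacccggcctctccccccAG
Pabpc1 intron 10 (74 bp): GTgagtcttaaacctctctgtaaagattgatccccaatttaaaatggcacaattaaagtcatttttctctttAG
Fasn intron 20 (75 bp): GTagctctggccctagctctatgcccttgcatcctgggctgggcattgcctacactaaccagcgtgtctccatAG
Adgre5 intron 17 (77 bp): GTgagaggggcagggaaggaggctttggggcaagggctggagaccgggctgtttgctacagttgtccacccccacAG
Gadd45b intron 1 (88 bp): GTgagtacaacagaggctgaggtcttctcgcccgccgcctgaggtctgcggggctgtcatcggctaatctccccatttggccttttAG
Map4k2 intron 11 (88 bp): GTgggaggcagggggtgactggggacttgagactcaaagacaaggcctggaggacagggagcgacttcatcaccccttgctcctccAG
Ftsj3 intron 17 (93 bp): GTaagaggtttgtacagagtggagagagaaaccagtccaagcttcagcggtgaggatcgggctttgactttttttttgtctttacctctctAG
Hsp90ab1 intron 5 (99 bp): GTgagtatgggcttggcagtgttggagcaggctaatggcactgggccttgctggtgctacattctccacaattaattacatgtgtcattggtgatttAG

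These introns differ widely in composition. The Rnf126 intron, the shortest of them, is 80% G and C, and the Pabpc1 intron is 32.4% G and C. In the 20 bases before the AG the share of pyrimidines is 80% in Rnf126, 75% in Pabpc1, 60% in Fasn and 55% in Hsp90ab1. Over all 1250 short introns whose letters could be read in this way, the median share of G and C was 57.3%, and it was 49.4% over 5225 introns of 100 bp or more. It was 57.5% over the 40 introns under 70 bp, and from 70 bp on it fell step by step with length, from 58.6% at 70 to 79 bp through 55.6% at 90 to 99 bp, 53.4% from 150 to under 300 bp and 48.0% from there to under 1000 bp to 43.3% at 1000 bp or more. GT and AG stood at the ends of 1242 of the 1250 (99.4%), GC and AG at 8, and AT and AC at none, against 5147, 70 and 8 of the 5225. The median pyrimidine share was 75% in both sets. Introns kept in an annotated transcript are not a sample of all introns, so these shares describe this subset.

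For introns that no annotated transcript keeps, the sequence that a read crosses is shown instead, because it is what the library holds after splicing. Each line gives the last 15 bases of the exon before the intron in lower case and the next 15 bases of the exon after it in capitals. The 4 junctions are the shortest named one with 20 or more reads, the named one with the largest bound, the one of Nr4a1 with the most reads among immediate early genes, and the one of Dgka with the most reads among genes of naive T cells.
Hnrnph1 across intron 8 (56 bp): atagatttggaagagACCTCAATTATTGTT
Actb across intron 4 (95 bp): agccttccttcttggGTATGGAATCCTGTG
Nr4a1 across intron 6 (94 bp): ccgcctggcataccgATCTAAACCCGGTGA
Dgka across intron 16 (98 bp): ttctagagaccattgACAAAGCCAACTTTG

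Genes were named by structure, because the annotation is of another build than the files. A junction took a gene's name when its chromosome, strand and intron length equalled those of an annotated intron and its distance to another such junction matched a transcript of that gene. In this way 5891 of the 7308 short junctions (80.6%) were named, in 2701 genes, against 95287 of all 124183 (76.7%). The other short junctions were 584 that lay outside the span of 1 named gene, 553 with 1 annotated splice site, 158 inside a named gene with neither site annotated, 64 wholly inside an annotated exon, 42 that matched more than 1 gene, 9 that equalled an annotated intron of the surrounding gene without being placed, and 7 that joined 2 annotated sites not joined in the annotation. Named short junctions had a median of 13 reads over both libraries. In the kinds with 1 or no annotated site the median was 1 read. Genes with near-identical copies elsewhere in the genome, among them Actb, Eef2, Eef1a1, Rpl8 and Trbc1, are uncertain, since reads may have been placed on a copy. Whether the library kept the strand is not given in the sources used here, so overlapping genes on opposite strands cannot be told apart.

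The mock library held 1147232 junction reads and the stimulated library 1341197. Short introns took 89241 of the mock reads (7.78%, 7.73 to 7.83) and 110703 of the stimulated reads (8.25%, 8.21 to 8.30), and the intervals did not overlap. They made up 6.28% of the listed mock junctions and 6.04% of the listed stimulated ones. A short junction held 14.5 mock reads and 18.8 stimulated reads on average, and a junction of 100 bp or more held 11.5 and 13.4. A count of 0 does not show that a junction was absent. In ratios it was set to 3 reads, a level of 2.61 reads per 1000000 for the mock and 2.24 for the stimulated library, out of all junction reads. The defining genes of the labelled cell type were present, with reads for all 9 T cell markers and 5696 mock and 6044 stimulated reads in sum. B cell markers held 871 and 970 reads over 9 of 9 genes, and Cd74 alone held 668 and 802 of these. Myeloid and dendritic markers held 69 and 56 reads over 9 of 13 genes, with Lyz2 and Flt3 at 0 in the stimulated library, and CD8 T and NK cell markers held 64 and 76 over 6 of 10, with Klrk1 at 0 in the mock library. Their part in the results below was not tested. Short introns of these markers held 2 mock and 3 stimulated reads for myeloid cells, and 2 and 15 for CD8 T and NK cells.

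The lengths piled up close to the upper limit. The shortest intron was 52 bp long, the median was 86 bp in both libraries, and the most common length was 87 bp, with 349 junctions. By ranges of length there were 83 junctions at 50 to 59 bp, 188 at 60 to 69 bp, 1474 at 70 to 79 bp, 3163 at 80 to 89 bp and 2400 at 90 to 99 bp. The median over all 124183 junctions was 1288 bp. Just inside the limit there were 187 junctions of 99 bp with 2854 mock and 4301 stimulated reads, and just outside it 201 of 100 bp with 2093 and 2549 reads.

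**Figure D1:**
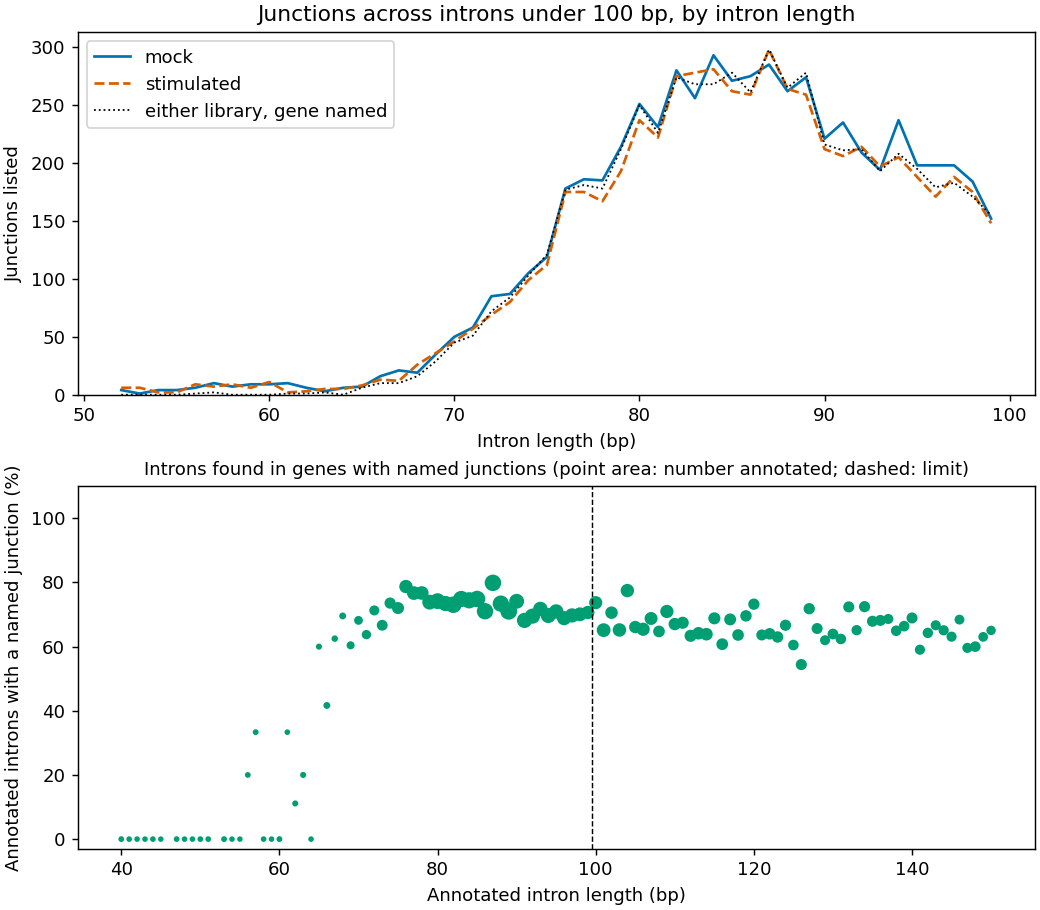
The upper panel plots the number of short junctions listed (y axis) at each intron length in bp (x axis) for the mock library, the stimulated library and the named junctions of either, and the lower panel plots the percentage of annotated introns of each length that had a named junction, with point area for the number annotated. Both libraries climb together from few junctions below 70 bp to a peak near 87 bp, and the share found climbs over the same lengths, to 73.7% at 70 to 79 bp and 74.0% at 80 to 89 bp, and is lower past 100 bp.

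Introns under 70 bp formed a sparse lower tail. There were 271 of them, 78 (28.8%) were named, 153 had 1 read in all, and 26 reached 20 reads. From 70 to 79 bp on, the named share was 83.0%, then 84.3% and 80.1%. The annotation was used to ask how many introns of each length could have been seen. In genes with named junctions, none of 105 annotated gaps between exons under 50 bp had a named junction. These include 26 gaps of 1 bp and 15 of 2 bp, too short to hold both a donor GT and an acceptor AG. At 50 to 59 bp 3 of 31 introns had a named junction (9.68%), and at 60 to 69 bp 75 of 151 (49.7%). At 70 to 79 bp 1221 of 1657 did (73.7%) and at 80 to 89 bp 2661 of 3595 (74.0%). Above the limit the share was 66.4% from 100 to under 150 bp, 63.7% from 1000 to under 5000 bp and 47.6% at 5000 bp or more. Among well-read genes, those with a median of 20 or more reads per junction, the shares were 18.2% at 50 to 59 bp, 61.3% at 60 to 69 bp, 91.8% at 70 to 79 bp and 93.5% at 80 to 89 bp. Annotated introns of 70 to 99 bp thus had a named junction in a higher share than longer ones in both sets of genes, and those under 60 bp seldom did. Naming needs the same intron length in both builds, and its part in these shares was not tested. The smallest intron that the aligner was set to accept is not given in the sources used here, and its part was not tested.

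Of the 26 introns under 70 bp with 20 or more reads, the 5 shortest are given. The 56 bp intron 8 of Hnrnph1, a protein that binds runs of G and takes part in splice site choice, lay at chr11:50196374-50196429 and had 36 mock and 52 stimulated reads (ratio 1.24, 0.792 to 1.95). A 57 bp junction with no gene name, at chr7:31213335-31213391, had 0 and 29 reads. It was higher by at least 6.31-fold by the interval limit, and 8.27-fold when set against 3 mock reads. The 65 bp intron 5 of Rnf126, a ubiquitin ligase, had 12 and 21 reads. The 66 bp intron 12 of Gramd4 had 65 and 16, a ratio of 0.211 (0.114 to 0.368), and a 66 bp junction with no gene name at chr13:3138404-3138469 had 13 and 21. These 5 junctions did not share a direction, with 1 lower, 1 higher and 3 whose intervals include 1.

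Named short introns lay in coding sequence in 5751 of 5891 cases (97.6%), against 92.1% of named introns of 100 bp or more. A further 49 lay in 5′ UTRs, 40 in 3′ UTRs and 51 in transcripts with no coding sequence. They were seldom the first intron of a transcript, 3.04% against 9.0% of the longer ones, and stood last in 9.04% against 8.88%. At least 1 annotated transcript kept the intron for 1250 short introns (21.2%) and for 5.84% of those of 100 bp or more. That share was 52.0% at 60 to 69 bp, 30.1% at 70 to 79 bp, 20.1% at 80 to 89 bp and 15.9% at 90 to 99 bp, then 16.8% from 100 to under 150 bp, 17.0% from 150 to under 300 bp and 2.87% from 1000 to under 5000 bp. A length that is a multiple of 3, which would keep the reading frame if the intron stayed in, was found in 33.1% of coding short introns and in 33.4% of the longer ones. Where reads on a gene were deep enough to compare (3494 short junctions), a short junction stood at a median log2 of 0.10 above the median junction of its gene, and the same value for introns of 100 bp or more was 0.00.

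Short introns clustered in some genes. Of the 2701 genes, 1511 had 1 short junction, 656 had 3 or more, 261 had 5 or more and 46 had 10 or more. Cpsf1, the large subunit of the complex that cleaves messenger RNA ends, had the most, with 26 of its 35 named junctions (74.3%). Its short introns held 229 mock and 327 stimulated reads, a ratio of 1.22 (1.03 to 1.45). Flna had 21 of 50 and Abca2 21 of 40, next in number. These genes were named after their counts were seen.

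A junction was called higher or lower in the stimulated library when it had 20 or more reads over both libraries, a 2-fold or larger difference in reads per 1000000 junction reads, and an exact interval without 1 in it. Of the 7308 short junctions 2334 had enough reads. Of these 534 (22.9%) were higher, 450 (19.3%) were lower and 1350 were neither. Over all 30589 junctions with enough reads 20.7% were higher and 20.6% lower, and over the 28255 of 100 bp or more 20.5% and 20.7%, so the shares lay near the background. The median log2 ratio was 0.02, and −0.03 over all junctions. Other scalings of the libraries put the point of no change lower. With the trimmed mean of M values it lay at −0.17 on the log2 scale, giving 611 higher and 388 lower. With the median of ratios it lay at −0.23, giving 641 and 358. A scaling moves every junction, and the shares over all junctions were not computed under these scalings.

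**Figure D2:**
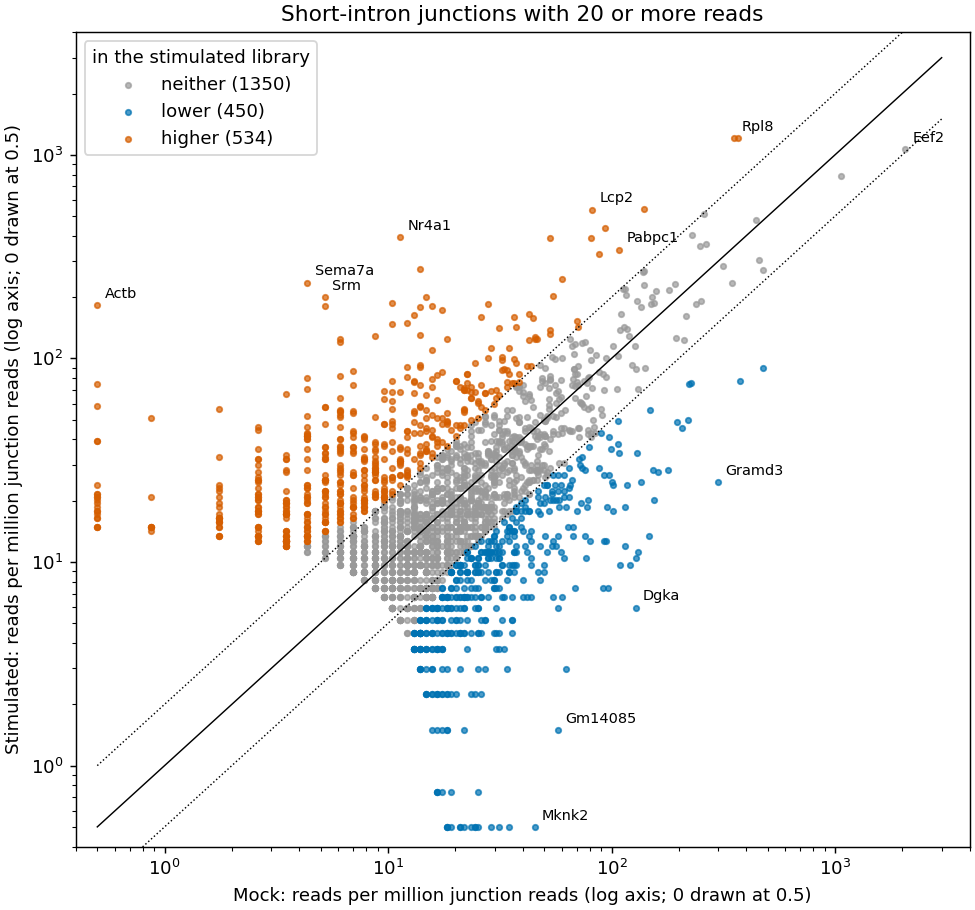
Each point is a short-intron junction with 20 or more reads, placed by its reads per 1000000 junction reads in mock cells (x axis, log) and stimulated cells (y axis, log), with a library at 0 drawn at 0.5, a solid line of equality and dotted lines at a ratio of 2. The 534 higher and 450 lower junctions lie on both sides of 1350 that were neither, and Actb, Nr4a1, Dgka and Mknk2 are among those farthest from the line.

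The most-read short junctions belonged to abundant genes of translation, protein folding and RNA binding, together with 2 genes of T cell signalling. Intron 6 of Eef2, the factor that moves the ribosome along the messenger, had 2361 mock and 1425 stimulated reads, more than any other short intron, at a ratio of 0.516 (0.483 to 0.552). Intron 7 of the same gene had 1222 and 1054 reads, and intron 5 had 522 and 409. The 3 introns follow each other in the gene and all had ratios below 1, but none reached the limit. In Hsp90ab1, a cytosolic chaperone, the 99 bp intron 5 went from 423 to 1627 reads (3.29-fold, 2.95 to 3.67) and the 82 bp intron 7 from 296 to 690 (1.99-fold, 1.74 to 2.29). The 2 introns of 1 gene thus lay on either side of the limit, with intervals that do not overlap, although intron 7 was higher under both other scalings. Intron 2 of Rpl8, a protein of the large ribosomal subunit, went from 405 to 1624 reads (3.43-fold, 3.07 to 3.83). Intron 4 of Ncl, which encodes the nucleolar protein nucleolin, went from 161 to 730 (3.88-fold, 3.27 to 4.63). Intron 9 of Lcp2, the adaptor SLP-76 of T cell receptor signalling, went from 94 to 721 (6.56-fold, 5.29 to 8.22). These junctions were higher and were among the 12 with the most reads. Neither higher nor lower were intron 19 of the initiation factor gene Eif4g2 (507 and 644 reads), intron 19 of the splicing factor gene Sf3b1 (547 and 363), intron 5 of Hnrnpa2b1 (262 and 542, higher under the median of ratios) and intron 19 of Ptprc, the phosphatase CD45 (305 and 488).

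Ranked by the interval bound closer to 1, the 8 short junctions that stood highest against the mock library lay in 7 genes: Actb, Sema7a, Eif5a, Nr4a1, Gadd45b, Srm and Kdm6b, which had 2. Intron 9 of Sema7a, a membrane-bound semaphorin, had 5 and 316 reads (54.1-fold, 22.9 to 168). Intron 6 of Nr4a1, an orphan nuclear receptor of the immediate early response, had 13 and 530 (34.9-fold, 20.2 to 65.9). Intron 6 of Srm, which makes spermidine, had 6 and 268 (38.2-fold, 17.3 to 105). Each of these 3 genes was also far higher outside its short intron, where Sema7a had 4 and 945 reads, Nr4a1 67 and 2140 and Srm 10 and 388. In Kdm6b, a demethylase of histone H3, intron 9 had 6 and 242 reads (34.5-fold, 15.6 to 94.9) and intron 15 had 16 and 369 (19.7-fold, 12 to 34.9). Its intron 21 had 0 and 53 (at least 11.9-fold by the interval limit, 15.1-fold against 3 mock reads). Intron 1 of Gadd45b, a stress-induced signalling protein, had 0 and 78 reads (at least 17.7-fold by the limit, 22.2-fold against 3 mock reads). For intron 5 of Eif5a, a translation factor, there were 0 and 100 (at least 22.8-fold by the limit, 28.5-fold against 3 mock reads). Intron 12 of the transporter gene Slc6a9 had 0 and 53 reads, the same counts as Kdm6b intron 21.

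The named junction with the largest bound was intron 4 of Actb, cytoplasmic beta actin, at chr5:143665928-143666022 on the minus strand. It had 0 mock and 246 stimulated reads, at least 56.6-fold more by the interval limit and 70.1-fold when set against 3 mock reads. A junction of the same 95 bp length was listed 4 bp away on the plus strand, at chr5:143665924-143666018, with 162 mock and 121 stimulated reads. Added together the 2 junctions had 162 and 367 reads, a ratio of 1.94 (1.61 to 2.35), which is neither higher nor lower. The other short intron of Actb, 87 bp long, had 160 and 360 reads and was neither. The value of 0 for intron 4 thus stands beside a second placement of the same length in the same library, and how the reads were divided between the 2 was not tested.

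At the other end, intron 16 of Dgka, a diacylglycerol kinase that dampens T cell receptor signals, had 147 mock and 8 stimulated reads (ratio 0.0466, 0.0197 to 0.0942). Intron 11 of the gene model Gm14085 had 66 and 2 (0.0259, 0.00307 to 0.0974), and intron 8 of Gramd3, on chromosome 18, had 345 and 33 (0.0818, 0.0554 to 0.117). On their other junctions Dgka had 4565 and 732 reads, Gm14085 589 and 20 and Gramd3 1024 and 87. The stimulated library had no read for 5 others. They were intron 3 of the kinase gene Mknk2 (52 mock reads), intron 25 of the kinesin gene Kif21b (40), intron 11 of Ankrd52 (36), intron 17 of Adgre5, the adhesion receptor CD97 (33), and intron 13 of Syvn1, a ubiquitin ligase of the endoplasmic reticulum (29). Set against 3 stimulated reads their ratios were 0.0493, 0.0642, 0.0713, 0.0778 and 0.0885. The upper limits were 0.0629, 0.0826, 0.0923, 0.101 and 0.116. Outside the short intron the genes were not alike: Mknk2 had 1003 and 293 reads, Kif21b 1094 and 190 and Adgre5 1265 and 204, while Ankrd52 had 239 and 349 and Syvn1 155 and 212.

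Each short junction was therefore set against the rest of its gene, to separate the junction from the level of the gene. The measure was the odds ratio of the junction's reads to the reads on all other named junctions of the gene, stimulated to mock, called at the same limits. Of 2269 short junctions that could be measured, 94 (4.14%) were higher and 102 (4.5%) lower than the rest of their gene. Over all 29629 junctions the shares were 4.63% and 4.79%, and over those of 100 bp or more 4.67% and 4.81%, so short introns lay near the background here too. The odds ratio was within 1.5-fold of 1 for 1389 short junctions (61.2%), and for 59.6% of those of 100 bp or more. Across these 2269 junctions the log2 ratio followed that of the rest of the gene with a Pearson r of 0.871, given as a description, because junctions of 1 gene share their RNA and all share the 2 libraries. Within a gene, reads per junction spread more widely than counting allows, with 2.01 times the counting variance over 4909 genes.

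**Figure D3:**
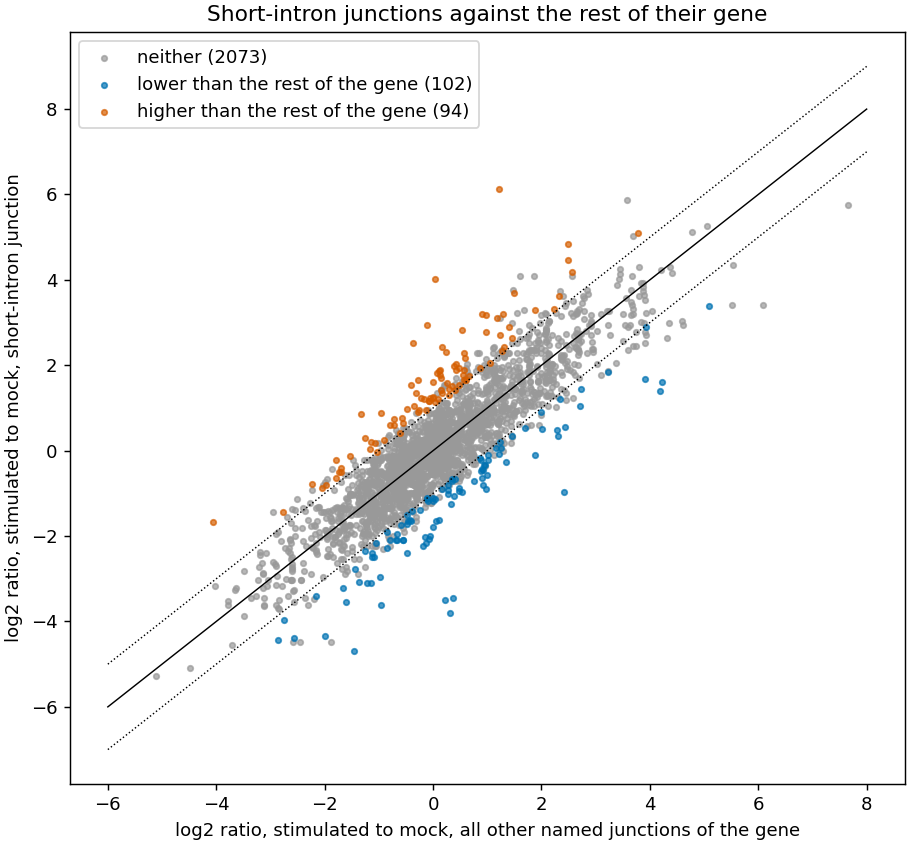
Each of 2269 short-intron junctions is placed by the log2 ratio, stimulated to mock, of all other named junctions of its gene (x axis) and by its own log2 ratio (y axis), with a solid line of equality and dotted lines 1 log2 unit to either side. Most points lie between the dotted lines; 94 junctions were higher and 102 lower than the rest of their gene.

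Beside Actb, which had 552 and 1497 reads on its other junctions, the junctions farthest above the rest of their gene were few and mostly had a library at 0. Intron 10 of Pabpc1, the poly(A)-binding protein, did not: it had 124 and 459 reads while the rest of the gene had 1063 and 1024, an odds ratio of 3.84 (3.08 to 4.81). This 74 bp intron is the one shown above with the low share of G and C. Eif5a intron 5 had at least 3.87 times the odds by the interval limit (5.06 against 3 mock reads), with 51 and 336 reads on the rest of the gene. Ube2m, a conjugating enzyme for NEDD8, had 0 and 25 reads on intron 3 and 60 and 102 elsewhere (at least 3.51 by the limit, 4.90 against 3 mock reads). Polr1c, a subunit shared by RNA polymerases I and III, had 0 and 32 on intron 5 and 48 and 137 elsewhere (at least 2.72 by the limit, 3.74 against 3 mock reads). Gadd45b intron 1 stood at least 2.75-fold above by the limit (3.95 against 3 mock reads).

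Farthest below the rest of the gene were Ankrd52 intron 11, Edc4 intron 8 (28 and 0 reads, with 232 and 352 elsewhere), Syvn1 intron 13 and Mknk2 intron 3, all with no stimulated read. Their odds ratios against 3 stimulated reads were 0.0571, 0.0706, 0.0756 and 0.197, with upper limits of 0.0751, 0.0943, 0.102 and 0.254. In 2 genes both libraries had reads. Eif5a intron 6, which lies in the 3′ UTR, had 37 and 132 reads while the rest of the gene had 14 and 304 (odds ratio 0.164, 0.0796 to 0.325), and it stands beside intron 5 of the same gene with 0 mock reads. The stimulated reads of that rest include the 100 of intron 5. Intron 8 of Hnrnpc, a protein that binds runs of U in new transcripts, had 125 and 184 reads while the rest had 75 and 433 (0.255, 0.180 to 0.361).

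Junctions that 1 library lacked were also counted among genes whose other junctions had 20 or more reads in each library. Of 2188 short junctions with 20 or more reads, 26 (1.19%) were at 0 in 1 library, 11 in the mock and 15 in the stimulated library, and of 26082 longer ones 341 (1.31%) were. Any other junction with both ends within 20 bp was listed for 4 of the 26, and it had reads in the lacking library for 2, Actb and Prkd2. For the other 24, among them Eif5a, Mknk2, Ankrd52 and Polr1c, no nearby junction held reads in the library that lacked them.

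Same-length pairs like that of Actb were looked for among all junctions. A second junction of the same length within 12 bp, on either strand, was listed for 382 of the 7308 short junctions (5.23%) and for 4.45% of the longer ones. They formed 196 pairs, of which 160 had 1 named partner, 72 lay on opposite strands and 72 were 4 bp apart. The less-read partner had 1 read in 86 pairs and 10 or more in 12. The examples that follow were chosen after their values were seen. In Ptprc an 81 bp pair on 1 strand, both named, had 19 and 44 reads and 274 and 249 reads, 293 and 293 together. In Arhgap45 the named junction had 176 and 38 reads and its partner on the other strand 26 and 5, so the pair moved together. In Prpf38b, a splicing factor, the partners had 42 and 38 and 29 and 26 reads. For 42 pairs the letters of the named intron could be read. The shifted placement gave exactly the same spliced letters in 2 of them, Prpf38b being 1, and differed by 1 base in 9 and by more in 31.

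Few short introns changed their share of a splice site. A donor or acceptor was shared with another junction for 1588 of 7308 short junctions (21.7%), against 36.3% of the longer ones. A site was counted when it had 20 or more reads in each library, the share differed by 20 points or more and the intervals did not overlap. Of 238 short junctions at a shared donor 1 was counted (0.42%), against 1.14% of all 4931. Of 157 at a shared acceptor 2 were (1.27%), against 1.04% of all 5297. Both kinds of site together gave 1.09% of all 10228. In Rif1, a protein of replication timing and DNA repair, an 89 bp intron took 9 of 25 mock reads at its acceptor (36.0%, 18.0 to 57.5) and 38 of 52 stimulated reads (73.1%, 59 to 84.4). The other reads there belonged to a 440 bp intron with 16 and 14 reads. In Srrm2, a large protein of the spliceosome, an 85 bp intron took 34 of 72 mock reads at its donor (47.2%, 35.3 to 59.3) and 10 of 64 stimulated reads (15.6%, 7.76 to 26.9), and the partner was a 696 bp intron with 38 and 54. The third was an 80 bp junction at chr12:56348287-56348366 that matched more than 1 gene, with 60 of 66 (90.9%) and 76 of 122 reads (62.3%). Next in size, and not counted because the intervals overlap, was a 90 bp intron of Rgs19 with 29 of 29 and 17 of 22 reads at its donor.

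Genes with many short introns let the same comparison be made along 1 transcript. The 5 genes with the most short junctions of 20 or more reads are given. Flna encodes filamin A, which links actin filaments. Of its 18 such junctions 12 were lower, 6 were neither and none was higher. Over all 21 of its short introns the sum went from 895 to 389 reads (0.372, 0.329 to 0.419), and its other junctions had a ratio of 0.433 (0.387 to 0.482). The lowest was intron 26 with 109 and 25 reads. Intron 13, with 8 and 17, was the only one of the 18 above 1 and stood 4.57-fold above the rest of the gene.

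Map4k2, a kinase of the stress pathway, had 13 such junctions and all 13 were lower. The sum over its short introns went from 1031 to 194 reads (0.161, 0.137 to 0.188), beside a ratio of 0.168 on the other junctions. Intron 25 was the lowest with reads in both libraries, at 72 and 4 (0.0475, 0.0126 to 0.127), and intron 15 had 25 and 0. Of the 2 introns with known letters, intron 11 had 89 and 25 reads and intron 20 had 25 and 9. Dync1h1, the heavy chain of cytoplasmic dynein, had 12 such junctions, 9 lower and 3 neither. Its sum went from 562 to 283 reads (0.431, 0.372 to 0.498), with 0.462 on the other junctions, and single introns ran from intron 38 (29 and 6 reads) to intron 47 (17 and 17).

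Fasn and Ftsj3 went the other way. Fasn makes fatty acids, and 10 of its 13 such junctions were higher and 3 were neither. The sum went from 167 to 742 reads (3.80-fold, 3.21 to 4.52), and the rest of the gene was 3.78-fold higher. Intron 17 was the highest, with 5 and 57 reads (9.75-fold, 3.94 to 31.2), and intron 42, the last, had 27 and 59 (1.87-fold, 1.17 to 3.07). Ftsj3 encodes a nucleolar methyltransferase of ribosome assembly. All 12 of its short junctions were higher, from intron 7 (11 and 35 reads, 2.72-fold) to intron 18 (5 and 107, 18.3-fold, 7.60 to 57.5), and the sum went from 91 to 697 reads (6.55-fold, 5.26 to 8.24), with 5.99-fold on the other junctions. In all 5 genes the sum over short introns and the rest of the gene lay on the same side of 1. Some single calls depended on the setting. Of the 9 lower junctions of Dync1h1 2 lost the call under the trimmed mean of M values and 3 under the median of ratios, which also ended the call of Flna intron 5, while 2 more junctions of Fasn were higher under each. With intervals widened for the spread among a gene's junctions, 2 calls were lost in each of Flna, Fasn and Dync1h1, 1 in Ftsj3 and none in Map4k2.

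**Figure D4:**
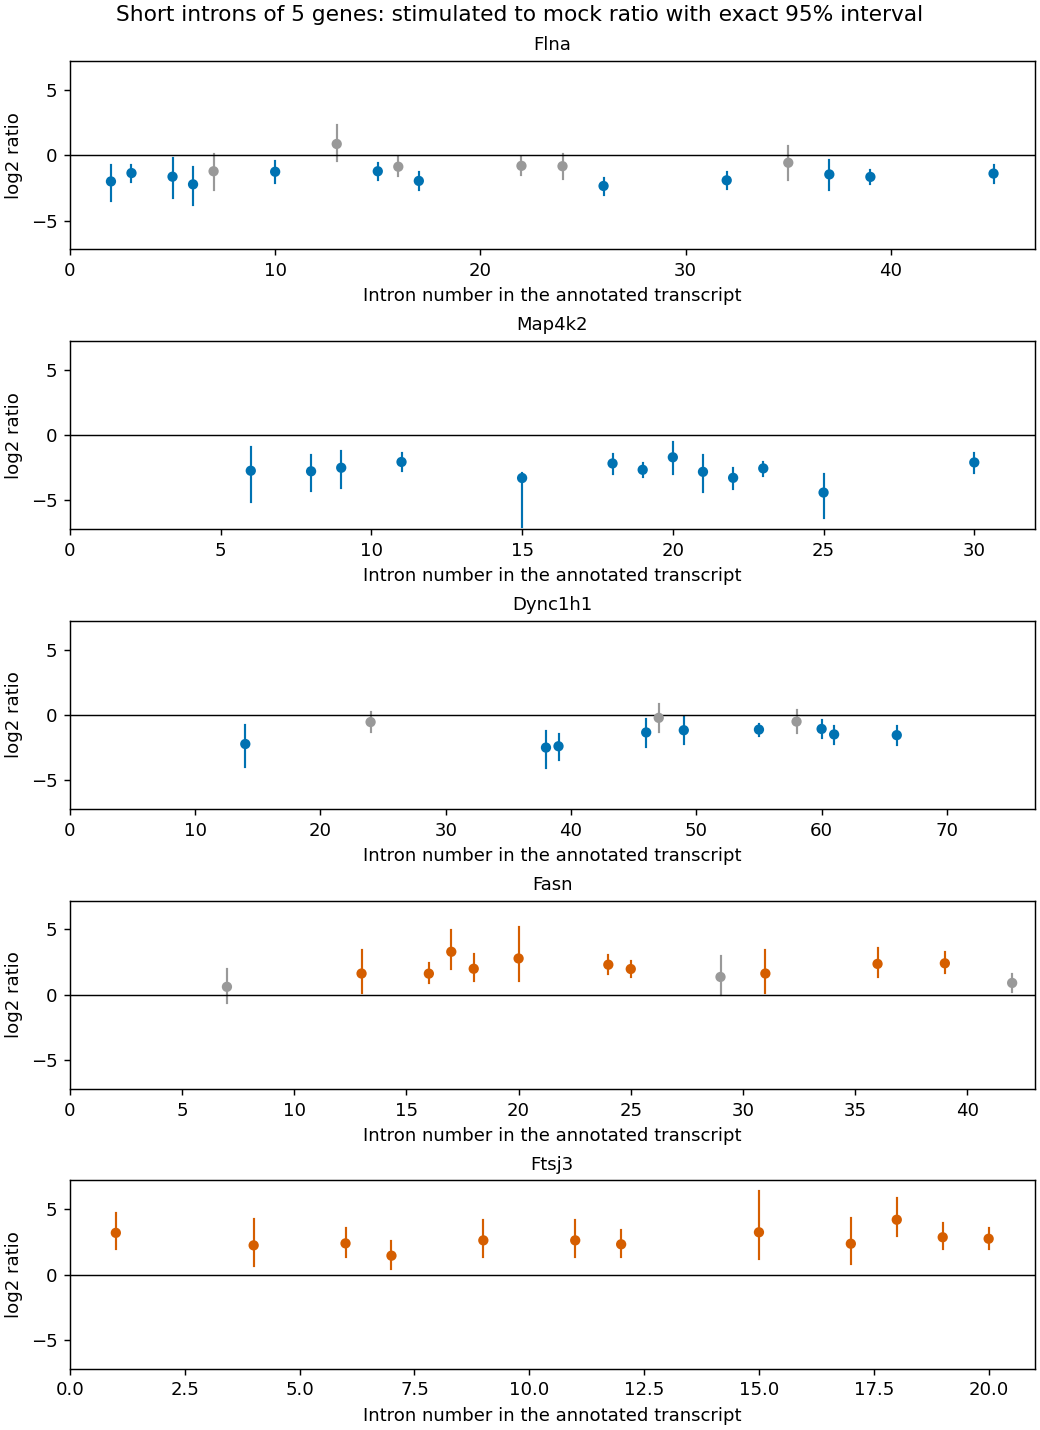
The log2 ratio, stimulated to mock (y axis), of each short-intron junction with 20 or more reads is drawn at its intron number (x axis). The genes are Flna, Map4k2, Dync1h1, Fasn and Ftsj3, and bars give the exact 95% interval. For Map4k2 intron 15, with 0 stimulated reads, the bar is cut near the foot of the panel, although the lower limit is a ratio of 0. All 13 junctions of Map4k2 lie below 0 and all 12 of Ftsj3 above it, and in Flna intron 13 alone lies above 0.

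Short-intron reads were then added up per gene. Of 1346 genes with 20 or more such reads, 284 (21.1%) were higher and 305 (22.7%) lower, at a median log2 ratio of −0.11. With all named junctions of a gene added up, 17.1% of 7195 genes were higher and 25.1% lower. Lists of genes for T cell activation, metabolism and RNA work were read against these shares. The lists are described by their counts and medians only. Members named as highest or lowest were picked by their short-intron ratio, and the rest of a gene could differ from it.

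Few genes of early activation were measured by their short introns, and those were mostly higher. Of the immediate early list Nr4a1 and Nfkbid, an inhibitor-like regulator of NF-kB (19 to 414 reads, 18.6-fold, 11.8 to 31.3), were measured, and both were higher. All 3 measured cytokine genes were higher. Tnfsf11, the ligand RANKL, had 5 and 62 reads (10.6-fold, 4.31 to 33.8). Lta, lymphotoxin alpha, had 3 and 40, a ratio of 11.4 (3.63 to 57.6). Il2, the T cell growth factor, had 0 and 22 (at least 4.69-fold by the interval limit, 6.27-fold against 3 mock reads). Among activation-linked surface proteins 3 of 4 were higher, led in reads by Slc3a2, the heavy chain of amino acid transporters (127 to 816, 5.50-fold, 4.55 to 6.68), while Tnfrsf18, the receptor GITR, had 38 and 48. In the list for naive and quiescent T cells all 4 measured genes were lower, at a median log2 ratio of −3.76: Dgka, Txnip, an inhibitor of thioredoxin and glucose uptake (63 and 9 reads), Pik3ip1, an inhibitor of PI3 kinase (73 and 10), and Arhgef18 (44 and 1, a ratio of 0.0194, 0.000481 to 0.114). Pik3ip1 was added after its values were seen, to complete the 4.

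T cell receptor signalling genes went both ways, with 3 of 14 measured members higher, 2 lower and 9 neither (median log2 ratio 0.19). Over all 1346 genes measured by short introns 21.1% were higher and 22.7% lower, so the share higher lay near the background. Lcp2 was the highest. Plcg1, the phospholipase that makes the calcium signal, was the lowest over 12 short introns with 325 and 125 reads (0.329, 0.265 to 0.406), beside 0.308 on its other junctions. Ptprc had the most reads, 756 and 1139 over 4 short introns. In the NF-kB pathway 3 of 7 were higher, 1 lower and 3 neither (0.87). The subunit genes Nfkb2 (174 to 576 reads, 2.83-fold, 2.39 to 3.37) and Rela (18 to 106, 5.04-fold, 3.04 to 8.83) were among the higher ones, and the kinase gene Ikbke (18 to 3, 0.143, 0.0269 to 0.488) was the lower one. Of the list of JAK kinases, STAT factors and cytokine receptors none of 8 was higher and 2 were lower, with Stat5b at 90 and 27 reads and Stat6, the most-read, at 179 and 220.

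Genes of the cytoskeleton, adhesion and migration were lower in 7 of 14 measured members, higher in 1 and neither in 6 (median log2 ratio −1.04). Itga4, an integrin chain, had 31 and 1 reads, a ratio of 0.0276 (0.000677 to 0.166), beside 0.184 (0.160 to 0.211) on its other junctions. Flna had the most reads. The higher one was Actb, whose short-intron reads went from 160 to 606 with intron 4 counted and from 160 to 360 without it, which is neither. The junctions of Actb outside its short introns had 392 and 1137 reads, a ratio of 2.48 (2.21 to 2.79), above the limit of 2. Genes of RNA polymerase II, Mediator and chromatin were lower in 6 of 26, higher in 1 and neither in 19 (−0.02). Over all genes measured by short introns 22.7% were lower and 21.1% higher, so the share lower lay near the background. Ehmt2, a methyltransferase of histone H3, was the lowest over 10 short introns (140 to 48, 0.293, 0.207 to 0.410), beside 0.336 on its other junctions. Hdac7, a histone deacetylase, was the higher one (8 to 25), but its other junctions had a ratio of 1.51 (1.29 to 1.78), under the limit of 2. Brd2, a reader of acetylated histones, had the most reads, 321 and 414.

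Genes that build ribosomes and feed translation were higher as lists. Of 24 measured genes for ribosome biogenesis 21 were higher and 3 were neither, with a median log2 ratio of 2.48. Mybbp1a, a nucleolar protein with 10 short introns, went from 104 to 1028 reads (8.46-fold, 6.91 to 10.4). Pwp2, of the small subunit processome, had 2 and 44, a ratio of 18.8 (4.91 to 160), and Ddx52 had 17 and 10 and was neither. Among transfer RNA synthetases and translation factors 15 of 20 were higher and none lower (1.66). Cars, the cysteine enzyme, had 6 and 77 reads (11-fold, 4.82 to 30.8), beside 5.47-fold on its other junctions. Eef2 had 4434 and 3163 over 6 short introns, a ratio of 0.610 (0.583 to 0.639), beside 0.938 on its other junctions. All 6 measured genes of one-carbon and nucleotide synthesis were higher (2.24), from Impdh1 (34 to 80, 2.01-fold, 1.33 to 3.10) to Shmt2, a mitochondrial enzyme of folate-linked carbon transfer (4 to 99, 21.2-fold, 8.01 to 79.2). The other junctions were 2.65-fold higher in Impdh1 and 10.8-fold in Shmt2. Of 4 measured ribosomal protein genes Rpl8 was higher and 3 were neither.

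Of 13 measured chaperone genes 9 were higher, 4 were neither and none was lower (1.27). Hsp90ab1 had the most reads, 719 and 2317 over both short introns (2.76-fold, 2.53 to 3.0), Cct3, a subunit of the CCT chaperonin, had 4 and 37 (7.91-fold, 2.84 to 30.6), and Hsp90b1 had 109 and 131. Of 11 proteasome genes 5 were higher and 6 were neither (0.83), with the activator subunit Psme3 at 32 and 251 reads (6.71-fold), Psme1 at 76 and 220 and Psmc3 at 18 and 17. Most splicing factor genes met neither condition: 6 of 32 were higher, 1 was lower and 25 were neither (0.28). Over all genes measured by short introns 21.1% were higher and 22.7% lower, so the share higher lay near the background. Prpf19 had 2 and 33 reads, a ratio of 14.1 (3.61 to 121), beside 3.10 (2.47 to 3.92) on its other junctions. U2af1l4 had 21 and 8 (0.326, 0.125 to 0.766), but its other junctions had 62 and 67, a ratio of 0.924 (0.645 to 1.33). Hnrnpa2b1 had 396 and 841 over 3 short introns. In oxidative phosphorylation 1 of 8 was higher, Cyc1 (56 to 157), and 1 lower, the ATP synthase gene Atp5c1 (43 to 24 reads, 0.477, 0.277 to 0.805), whose other junctions had a ratio of 1.31. None of the 3 measured glycolysis genes was higher or lower by its short introns. Aldoa had 467 and 762 reads there (1.40-fold, 1.24 to 1.57), and its other junctions were 2.66-fold higher. Of 2 measured genes of antigen processing, Tap2 was higher (4 to 18) and Tapbp was neither (30 and 30). The other junctions of Tap2 had 227 and 407 reads, a ratio of 1.53 (1.30 to 1.81), under the limit of 2. The measured T cell markers Lck (245 and 281) and Trbc1 (247 and 216) were neither. No gene of the myeloid list or of the CD8 T and NK list reached 20 reads on short introns.

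**Figure D5:**
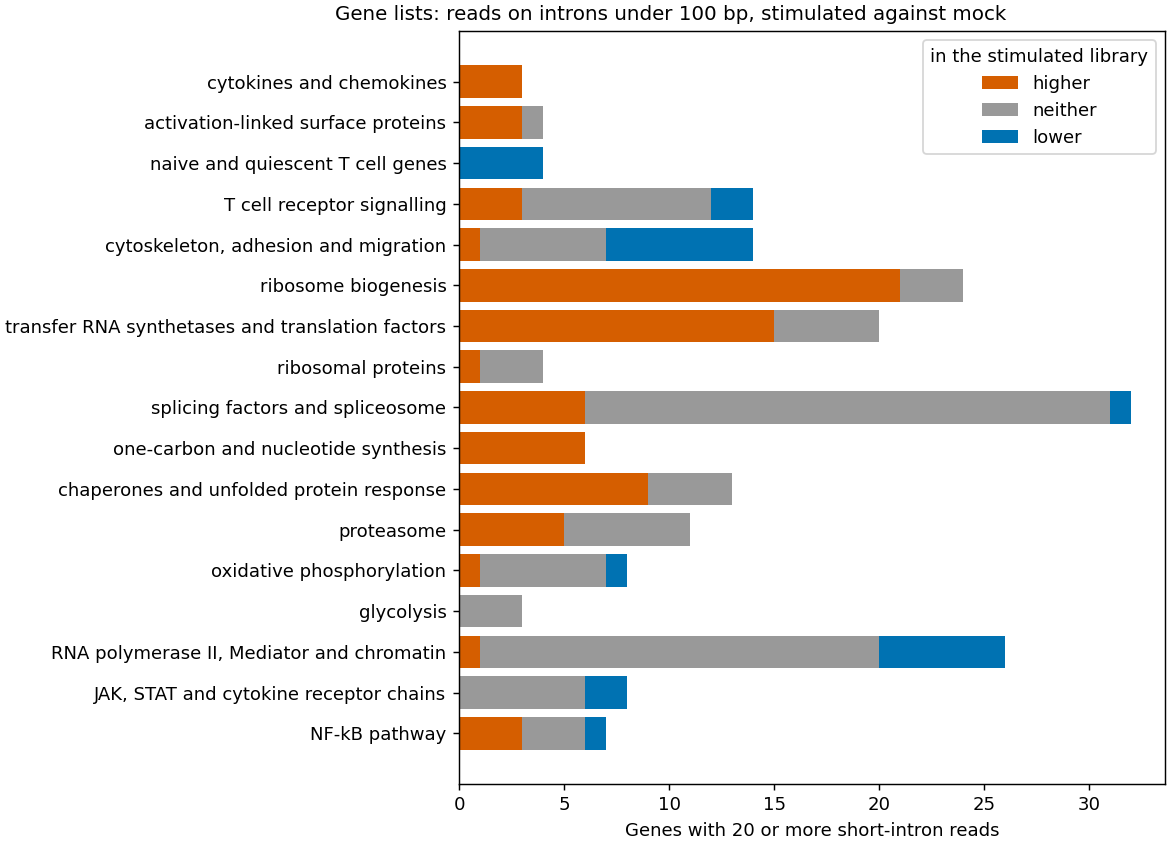
For each list with 3 or more measured genes, bars give the number of genes with 20 or more short-intron reads (x axis) that were higher, neither or lower in the stimulated library. Ribosome biogenesis has 21 of 24 genes higher, naive and quiescent T cell genes have 4 of 4 lower, and splicing factors have 25 of 32 that were neither.

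Short junctions without a gene name were read less and were seldom measured. The most-read of them, after the plus-strand partner of Actb, were 1 at chr16:19085415-19085507 with 108 and 134 reads, 1 at chr15:89136725-89136799 with 114 and 48 (0.360, 0.252 to 0.509), 1 at chr15:76428161-76428239 with 49 and 90, and the one on chromosome 12 given above with 60 and 76. Only that at chr15:89136725-89136799 was lower, and none of the 5 was higher. Of the 31 measured junctions outside the span of 1 named gene, 6 (19.4%) were higher and 9 (29.0%) lower, beside 20.7% and 20.6% of all junctions. Of the 553 with 1 annotated splice site, 397 had 1 read in all and 1 was measured.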

How the data were processed

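Junction counts, the reads that span each splice junction, were used as deposited in the score column, per the file headers, in 1 mock and 1 stimulated library, with no normalization. TopHat, Cufflinks and the build mm9 are named per the submitters' processing notes; their versions and settings: not given in the sources used here. A junction that the aligner missed or shifted has a wrong count.

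The intron runs from start plus the first block to end minus the second, 1-based. Genes came from GENCODE M21 (GRCm38) by structure, with no coordinate converted; 370 junctions that matched more than 1 place, and 508 readthrough transcripts, were left out. Ratios used reads per 1000000 junction reads, with exact 95% intervals from the binomial share of stimulated reads, at 20 or more reads and a ratio of 2; a library at 0 was set to 3 reads. Odds ratios had exact conditional intervals. Python 3.11.15, scipy 1.17.1 and pandas 2.3.3 were used; edgeR 4.0.16 gave only the trimmed mean of M values. Calls and naming were checked on simulated data. The simulated reads varied by counting error only, which is less than the spread found within genes here.

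Named were the 12 most-read short junctions, the 8 highest and 8 lowest by the interval limit nearest to 1, the 5 shortest, 6 in each direction against the gene, 5 genes with the most measured short junctions, 5 unnamed, 5 in 1 library only, 5 shared sites, and the most-read, highest and lowest of each gene list. Members and lists were chosen with earlier results of these data known. The closing section gives the alternatives tried. Some results under this rule are not reported here.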

Additional observations from a re-analysis of the deposited data

How the results depend on the processing

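With 1 library per group, no setting measures the spread between samples, and depth leaves 4974 of the 7308 short junctions under 20 reads. No paired analysis was possible because there is 1 library per group. Of 2334 measured short junctions 534 were higher and 450 lower. At 50 or more reads 978 were measured, with 266 higher and 174 lower, and under 90 bp 1560 were, with 361 and 292. Over the same 2334 the counts were 256 and 168 at a ratio of 4. They were 402 and 301 with intervals widened for the spread among a gene's junctions. The shares over all junctions were not computed at these settings. The median log2 ratio of 0.02 became 0.19 with the trimmed mean of M values, 0.24 with the median of ratios, −0.10 at 10 or more reads and 0.14 at 50. The share of reads on short introns, 7.78% in the mock and 8.25% in the stimulated library, was 5.02% and 5.29% under 90 bp, 9.89% and 10.2% under 110 bp, 7.44% and 7.99% for junctions in both libraries and 7.52% and 8.03% for named junctions; the stimulated share was above the mock share in each. Of 2269 junctions measured against the rest of their gene, 94 were above it and 102 below. At 50 or more reads they were 42 and 51 of 942, and under 90 bp 59 and 64 of 1518. At a ratio of 4 they were 13 and 12 of 2269, and with widened intervals 34 and 41. Against neighbouring junctions only they were 87 and 77 of 2081. A limit of 110 bp, an overhang of 20 bases, junctions in both libraries and named junctions left these counts within 1.5 times. Adding same-length copies together, chosen after seeing the data, gave 530 higher and 450 lower. Of 114 named junctions 5 changed their call with the trimmed mean, 8 with the median of ratios and 7 with widened intervals; with copies added 112 kept their call, Actb intron 4 lost it and its partner was merged into it. None changed direction.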

Other observations

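Short introns were unevenly spread over the chromosomes. Among the autosomes and X they made up 9.23% of all listed junctions on chromosome 15, 9.04% on chromosome 7, 8.95% on chromosome 8 and 8.66% on chromosome 17, and 2.81% on chromosome 13, 3.21% on chromosome 1 and 3.25% on chromosome 6. On the thinly listed Y they were 13 of 107 junctions (12.1%), and on the mitochondrial chromosome 3 of 15. Chromosome 7 held the largest number, 777. They were split between the strands at 3547 on the plus and 3761 on the minus strand.

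The letters of the 64 short junctions that lay wholly inside an annotated exon could be read. They began with GT and ended with AG in 34, with GC and AG in 17 and with AT and AC in 9, and 4 had other ends, beside 1242 of 1250 named short introns with GT and AG and 8 with GC and AG. Of the 64, 39 had 1 read in all, and 23 had a length that is a multiple of 3.

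Among coding introns of 60 to 69 bp, 40 of 73 (54.8%) had a length that is a multiple of 3, against 30.2% at 70 to 79 bp, 29.7% at 80 to 89 bp and 38.7% at 90 to 99 bp. The ranges that begin at 60 and at 90 bp hold 4 such lengths and the other 2 hold 3. Short junctions in 5′ UTRs were measured 7 times, with 4 higher, 3 neither and none lower in the stimulated library, those in 3′ UTRs 5 times, with 2 higher and 3 neither, and those in noncoding transcripts 6 times, with 4 higher and 2 neither. Of all junctions measured 20.7% were higher and 20.6% lower, and these sets are too small to be read against those shares.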
